A study of Mus musculus with 12 samples.

Results

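The genes described here are 10 genes of the white adipocyte, the fat-storing cell that fills much of the mouse mammary fat pad: 3 hormone genes (Lep, Adipoq, Retn), the transcription factor gene Pparg, 2 lipid droplet coat genes (Plin4, Cidec), 2 lipase genes (Lipe, Pnpla2), the glucose transporter gene Slc2a4 and the fatty acid carrier gene Fabp4. They were taken by gene symbol, and the list was chosen with earlier results of these data known. In the platform annotation 16 of 45037 probe sets name 1 of the 10 genes, and 10 of 18193 named genes are members. A probe set is a group of short probes on the array that reads 1 or more transcripts. Its value here is a log2 signal, so that a difference of 1 is a 2-fold difference. Of the 16 probe sets, 15 passed a filter on low signal (a mean of at least log2 6.04), and the other one, for Lipe, is given by its values only.

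Transcript levels were measured on Affymetrix arrays in mammary tissue of 12 mice taken at day 6 after a plug, with 3 mice in each of 4 genotypes and a mixed descent from FVB, C57BL/6 and 129 strains. Stat5a and Stat5b encode the transcription factors that carry prolactin and growth hormone signals, and every mouse had lost copies of them. Single-Stat5b mice (labelled Stat5abnull/Stat5a-) are taken from the label to keep 1 Stat5b allele and no Stat5a allele, and single-Stat5a mice (labelled Stat5abnull/Stat5b-) to keep 1 Stat5a allele and no Stat5b allele. By their genotype labels Stat5a-/- mice have 2 Stat5b alleles and no Stat5a allele, and Stat5ab+/null mice have 1 allele of each gene. The sample titles carry the letters ABB for the Stat5a-/- and AAB for the Stat5ab+/null samples, which do not match these numbers if they count alleles, and the labels do not explain them. The groups follow the genotype labels, and 1-allele and 2-allele arrays are names for the allele totals these labels give. The comparisons ask which isoform is kept at 1 allele (single-Stat5b against single-Stat5a) and how 2 Stat5b alleles compare with 1 of each isoform (Stat5a-/- against Stat5ab+/null). No wild-type mice were analysed here. The labels also speak of sorted cells and of an Mx1-Cre transgene switched on with PolyIC. The design text names mammary tissue, and no label says which of these mice, if any, carried that transgene.

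White adipocytes store triglyceride in a large droplet coated by perilipin and CIDE proteins. The nuclear receptor PPAR-gamma drives the genes of the fat cell, adipose triglyceride lipase and hormone-sensitive lipase split the stored fat in turn, and the cell releases leptin, adiponectin and, in mice, resistin into the blood. In the mammary gland of early pregnancy, epithelial ducts and buds grow into a fat pad made of such cells, so that bulk tissue RNA carries both.

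Promoter windows from RefSeq (GRCm38.p6, 250 bases before to 50 after a start site) were found for 8 of the 10 genes, in 12 windows. The C/EBP motif TTGCNNAA, for the family of factors that act with PPAR-gamma in fat cells, was in 3 of the 12 windows, those of Lep, Cidec and Pparg, and in 10.8% of 32851 windows in the table, with both strands searched. The stretches before the start site that hold it are shown, with the match in capitals and each read 5′ to 3′ on the strand of the gene. Lep and Cidec have some of the larger differences given further on, neither of them called, and Pparg is the transcription factor gene of the list. Plin4, with a difference about as large as that of Cidec, had no match.
Lep, chr6:29060140-29060199, plus strand: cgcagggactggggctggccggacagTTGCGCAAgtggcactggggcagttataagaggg
Cidec, chr6:113434929-113434988, minus strand: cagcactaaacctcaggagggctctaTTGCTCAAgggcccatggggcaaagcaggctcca
Pparg, chr6:115421825-115421884, plus strand: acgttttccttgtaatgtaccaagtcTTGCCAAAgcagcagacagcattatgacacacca
The Lep match is 55 bases before the start site and the Cidec match 198. The same Pparg window holds another match closer to the start. The STAT motif TTCNNNGAA was in 1 of the 12 windows, of Lipe and not wholly before its start site, and in 8.30% of all windows. The E box CACGTG was in 1 window, also of Lipe, and in 7.15% of all windows, and the spaced direct repeat bound by PPAR-gamma with RXR was in 0 of 12 and in 0.0396% of all windows. A match is a description of these letters and not of binding, and none of these motifs overlaps another in the stretches shown.

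Some facts of the whole series bear on the values. The arrays fall into 2 sets that follow the allele total: the log2 signal of the 3' actin control minus that of the 5' one, which grows as RNA is broken or copied in part, was 2.16 to 3.78 in the 6 arrays with 1 intact allele and 0.13 to 0.27 in the 6 arrays with 2. Array set and allele total cannot be told apart, so genotypes were compared within each set. The Stat5a probe sets were 0.39 and 0.56 higher in the arrays labelled Stat5a-/- than in Stat5ab+/null. The Stat5b probe sets differed by -0.31 and -0.25 in the same comparison. No Stat5a or Stat5b probe set passed the test there, and all of these directions run against the allele numbers. The direction of each difference between the arrays labelled Stat5a-/- and those labelled Stat5ab+/null therefore rests on the labels alone. In single-Stat5b against single-Stat5a the Stat5a probe sets differed by -1.23 (SE 0.20, limma adjusted p = 0.0025) and -0.24 (SE 0.25), and the Stat5b probe sets by 0.20 and 0.64, none of the last 3 past the threshold. The position of these probes against the deleted sequence was not examined here. P-values come from limma, a linear model with a spread shared over all 12 arrays, adjusted by Benjamini-Hochberg over all 31526 probe sets tested, and a call is an adjusted p under 0.05. The 3 samples of a group are separate mice, whose litters are not named, and their number limits the precision.

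Each of the 10 genes had a probe set well above the filter in every array. Other probe sets of Slc2a4, Fabp4, Pnpla2 and Lipe, some of them far lower, are given further on. The leading probe set of each gene, the one with the highest mean, lay between log2 9.45 and 14.71 in all 12 arrays. Between single-Stat5b and single-Stat5a, 9 of the 10 genes were below 0, with a median log2 difference of -0.48 beside -0.0014 over all probe sets tested, and 50.2% of all probe sets were below 0. Between the arrays labelled Stat5a-/- and Stat5ab+/null, 6 of the 10 genes were below 0, with a median of -0.0039 beside -0.054 over all probe sets, of which 61.4% were below 0.

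**Figure D1:**
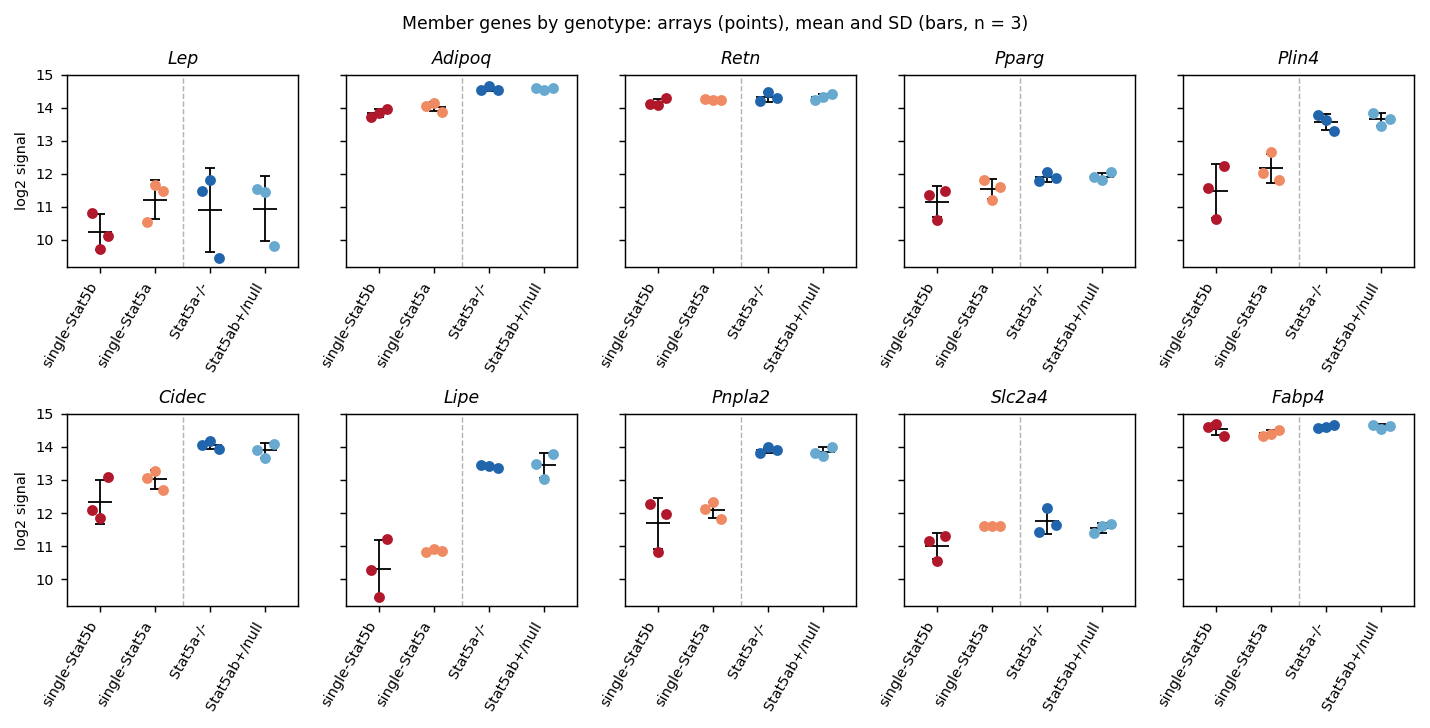
Log2 signal of the leading probe set of each of the 10 genes (vertical axis, shared by all panels) in the 4 genotypes (horizontal axis), with a point per array and bars for the mean and SD (n = 3). The dashed line parts the 1-allele arrays on the left from the 2-allele arrays on the right. Lep spreads from 9.45 to 11.80 across mice, Retn and Fabp4 lie above 14 in every array, and Lipe stands at 9.46 to 11.22 in the 1-allele arrays and at 13.04 to 13.78 in the 2-allele arrays.

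Among the 15 member probe sets tested, 0 were called between single-Stat5b and single-Stat5a, where 2.89% of all probe sets were called (1.81% lower and 1.08% higher), and the lowest adjusted p of a member was 0.255. The 95% intervals of 2 of the 15 left out 0, those of the leading Slc2a4 probe set (-1.11 to -0.12) and of Cidec (-1.28 to -0.055). These intervals use the spread shared over all 12 arrays. The SD of Cidec was 0.67 in single-Stat5b and 0.29 in single-Stat5a, against 0.12 in Stat5a-/- and 0.21 in Stat5ab+/null. Its interval thus rests in part on the tighter 2-allele arrays. For Slc2a4 these SDs were 0.39 and 0.0021, against 0.37 and 0.15. Between the arrays labelled Stat5a-/- and Stat5ab+/null, 0 of 15 were called, where 0.00952% of all probe sets were called (0.00634% higher and 0.00317% lower), and every member interval held 0. In a test of whether the first difference differs from the second, 0 of 15 were called, where 1.09% of all probe sets were called (0.422% higher and 0.672% lower). The missing calls do not show that the genes had equal levels. The 95% intervals of the member differences reached from -2.28 to 0.78 in the first comparison and from -1.32 to 1.26 in the second. In bulk tissue, fewer adipocytes and less RNA per adipocyte cannot be told apart.

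**Figure D2:**
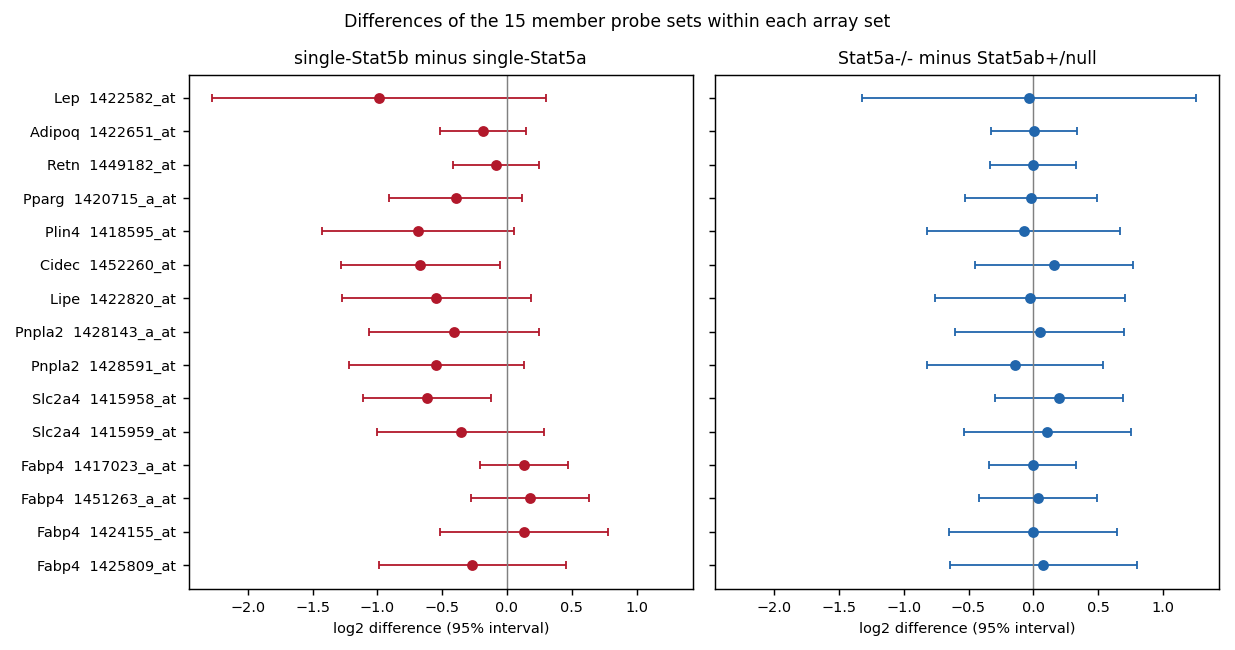
Log2 difference (horizontal axis) of each of the 15 member probe sets that passed the filter (rows), for single-Stat5b minus single-Stat5a on the left and Stat5a-/- minus Stat5ab+/null on the right. Points are limma estimates and bars are 95% intervals, with 3 arrays a group and a spread shared over all 12 arrays. On the left 12 of 15 points lie below 0 and the intervals of Cidec and of 1 Slc2a4 probe set leave out 0, and on the right all points lie between -0.14 and 0.20.

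Among the hormone genes, Lep encodes leptin, the satiety hormone that adipocytes release in step with their fat stores. Lep stood at 10.82, 9.74 and 10.13 in single-Stat5b mice, against 10.55, 11.65 and 11.46 in single-Stat5a mice. The groups overlapped by 1 mouse of each, and the log2 difference of -0.99 (SE 0.60, limma adjusted p = 0.603) was the largest of the list. Over the alternatives it lay between -1.33, without single-Stat5a 1, and -0.34, with array weights. Lep stood at 11.48, 11.80 and 9.45 in the arrays labelled Stat5a-/-, against 11.55, 11.46 and 9.81 in those labelled Stat5ab+/null. Each of these groups held 1 mouse far below its other 2, and the group means differed by -0.030 (SE 0.60, limma adjusted p = 1.00). Without Stat5a-/- 3, the low mouse of the first of these groups, the difference was 0.70, and without Stat5ab+/null 3 it was -0.59. The spread of Lep within genotypes, pooled over the 4, was an SD of 0.90, larger than that of 99.0% of probe sets tested. The list means of brown adipocyte markers in those 2 low-Lep arrays were 9.44 and 9.93, against 8.05 to 8.79 in the other 4 arrays of the set. The 1-allele arrays did not share this pattern. There the list mean was 8.91 in single-Stat5b 2, with the lowest Lep, and 8.90 in single-Stat5a 2, with the highest. It was lowest in single-Stat5b 3 (8.32, Lep 10.13) and highest in single-Stat5a 1 (9.89, Lep 10.55). The part of brown fat in the Lep values was not tested.

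Adipoq encodes adiponectin, the abundant insulin-sensitizing hormone of fat cells. Adipoq stood at 13.72, 13.85 and 13.97 in single-Stat5b mice, against 14.06, 14.15 and 13.88 in single-Stat5a mice. The groups overlapped, with a log2 difference of -0.18 (SE 0.15, limma adjusted p = 0.748). It stood at 14.53, 14.64 and 14.52 in the arrays labelled Stat5a-/-, against 14.58, 14.52 and 14.59 in those labelled Stat5ab+/null, a difference of 0.0020 with a 95% interval of -0.33 to 0.33. Retn encodes resistin, a hormone that in mice comes from adipocytes. Retn stood at 14.11, 14.08 and 14.28 in single-Stat5b mice, against 14.26, 14.22 and 14.23 in single-Stat5a mice, a difference of -0.082 (SE 0.15). In the arrays labelled Stat5a-/- it stood at 14.20, 14.49 and 14.28, against 14.24, 14.33 and 14.40 in those labelled Stat5ab+/null, a difference of -0.0017 with a 95% interval of -0.33 to 0.33. Adipoq and Retn were among the steadiest probe sets on the array, with pooled SDs of 0.10 each, smaller than those of all but 1.25% and 1.20% of probe sets. Both lie near the top of the signal scale, which ends at log2 15.38 in this table, and whether a ceiling narrows their differences was not tested. Across the 3 arrays labelled Stat5a-/-, Lep spread over more than 2 log2 units while Adipoq and Retn spread over less than 0.3.

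Pparg encodes PPAR-gamma, the nuclear receptor that fat cells need to form and to persist. Pparg stood at 11.36, 10.61 and 11.48 in single-Stat5b mice, against 11.82, 11.21 and 11.60 in single-Stat5a mice. The ranges overlapped through single-Stat5a 2 and the difference was -0.39 (SE 0.24, limma adjusted p = 0.602). It stood at 11.77, 12.06 and 11.86 in the arrays labelled Stat5a-/-, against 11.90, 11.80 and 12.04 in those labelled Stat5ab+/null, with a difference of -0.018 (SE 0.24).

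The lipid droplet coat genes had the next largest differences after Lep. Plin4 encodes perilipin 4, a coat protein of small droplets. Plin4 stood at 11.55, 10.63 and 12.24 in single-Stat5b mice, against 12.01, 12.65 and 11.82 in single-Stat5a mice, a difference of -0.69 (SE 0.34, limma adjusted p = 0.483). Single-Stat5b 3 lay inside the range of the other group. In the arrays labelled Stat5a-/- it stood at 13.78, 13.63 and 13.31, against 13.83, 13.44 and 13.67 in those labelled Stat5ab+/null (difference -0.075, SE 0.34). Cidec encodes the protein that fuses droplets into the single large one of a white adipocyte. Cidec stood at 12.10, 11.84 and 13.10 in single-Stat5b mice, against 13.06, 13.28 and 12.71 in single-Stat5a mice, a difference of -0.67 (SE 0.28, limma adjusted p = 0.359). Here too single-Stat5b 3 overlapped the other group, while the remaining single-Stat5b mice lay below it. In the arrays labelled Stat5a-/- Cidec stood at 14.06, 14.16 and 13.93, against 13.91, 13.67 and 14.10 in those labelled Stat5ab+/null (difference 0.16, SE 0.28).

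Pnpla2 encodes adipose triglyceride lipase, which takes the first fatty acid off stored triglyceride, and Lipe encodes hormone-sensitive lipase, which acts on the diglyceride left. Lipe stood at 10.28, 9.46 and 11.22 in single-Stat5b mice, against 10.82, 10.90 and 10.86 in single-Stat5a mice. The second group was tight (SD 0.038) and the first spread to both sides of it (SD 0.88), so that the difference of -0.54 (SE 0.34, limma adjusted p = 0.622) lies within the spread of single-Stat5b. Lipe stood at 13.44, 13.43 and 13.37 in the arrays labelled Stat5a-/-, against 13.50, 13.04 and 13.78 in those labelled Stat5ab+/null (difference -0.024, SE 0.34). The leading Pnpla2 probe set stood at 12.28, 10.81 and 11.96 in single-Stat5b mice, against 12.11, 12.33 and 11.83 in single-Stat5a mice (difference -0.41, SE 0.30). That difference rested on single-Stat5b 2, without which it was 0.029. In the arrays labelled Stat5a-/- it stood at 13.82, 13.98 and 13.89, against 13.82, 13.73 and 14.00 in those labelled Stat5ab+/null (difference 0.049, SE 0.30). The other Pnpla2 probe set differed by -0.55 (SE 0.31) and -0.14 (SE 0.31) in these comparisons, below 0 in both, so that the 2 probe sets point opposite ways in the second. The other Lipe probe set, under the filter and not tested, lay at 4.77 to 5.52 in all arrays. It stood at 5.00, 5.05 and 5.02 in single-Stat5b mice, against 4.77, 4.87 and 4.89 in single-Stat5a mice. That direction is opposite to the leading Lipe probe set. It averaged 5.03 in the arrays labelled Stat5a-/- and 5.37 in those labelled Stat5ab+/null.

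Slc2a4 encodes GLUT4, the insulin-regulated glucose transporter of fat and muscle. Its leading probe set stood at 11.15, 10.55 and 11.30 in single-Stat5b mice, against 11.61, 11.61 and 11.62 in single-Stat5a mice. Every single-Stat5b mouse lay below every single-Stat5a mouse, the 1 member probe set of 15 with no overlap in this comparison, where 6.16% of all probe sets were lower and 5.29% higher without overlap. The difference of -0.61 (SE 0.23, 1.53-fold lower) did not pass (limma adjusted p = 0.255). It was -0.39 without single-Stat5b 2. The second Slc2a4 probe set stood at 6.79, 7.24 and 8.06 in single-Stat5b mice, against 8.04, 7.41 and 7.71 in single-Stat5a mice, with overlap and a difference of -0.36 (SE 0.30). In the arrays labelled Stat5a-/- the leading probe set stood at 11.44, 12.16 and 11.65, against 11.39, 11.61 and 11.66 in those labelled Stat5ab+/null (difference 0.20, SE 0.23), and no member probe set was free of overlap there, where 6.17% of all probe sets were higher and 11.3% lower without overlap. The within-set differences of Slc2a4 differed from each other by -0.81 (SE 0.32, limma adjusted p = 0.521), those of Cidec by -0.83 (SE 0.40, adjusted p = 0.709) and those of Lep by -0.96 (SE 0.84, adjusted p = 0.964). Muscle also makes Slc2a4: the skeletal muscle list had 12 of 12 genes below 0 in the comparison of single-Stat5b with single-Stat5a. With each array's list means for muscle and B cells in the fit, the Slc2a4 difference was -0.59. The part of muscle in the Slc2a4 values was not tested.

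Fabp4 encodes the fatty acid-binding protein that carries lipid inside adipocytes, and it was the 1 gene of the 10 above 0 in the 1-allele arrays. The leading probe set stood at 14.60, 14.71 and 14.34 in single-Stat5b mice, against 14.34, 14.38 and 14.52 in single-Stat5a mice (difference 0.13, SE 0.16, limma adjusted p = 0.843). Of its 4 probe sets, 3 were above 0 in this comparison, at 0.13, 0.13 and 0.17, and the fourth was at -0.27. In the arrays labelled Stat5a-/- the leading probe set stood at 14.58, 14.61 and 14.67, against 14.66, 14.56 and 14.65 in those labelled Stat5ab+/null, a difference of -0.0061 with a 95% interval of -0.34 to 0.33. The 4 probe sets differed by -0.0061 to 0.078 there.

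The probe sets of a gene gave different pictures when the 1-allele arrays were set beside the 2-allele arrays, and these values cross the array sets, so they are descriptions with no test. The second Slc2a4 probe set lay at 6.79 to 8.06 in the 1-allele arrays and 11.89 to 12.56 in the 2-allele arrays, a mean difference of -4.60, and 0.130% of probe sets had a fall at least as large. The leading one lay at 10.55 to 11.62 and 11.39 to 12.16, a difference of -0.34. Of the pair, 1 probe set separated the array sets with a wide gap and the other overlapped between them.

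The probe sets of Fabp4 differed in sign. The third Fabp4 probe set by mean signal lay at 8.86 to 10.20 in the 1-allele arrays and 12.51 to 13.10 in the 2-allele arrays (mean difference -3.42), while the second lay at 14.26 to 14.92 and 13.22 to 13.83 (mean difference 1.01). The remaining probe sets of Fabp4 differed by -1.52 and, for the leading one, -0.14. In the annotation table these opposed probe sets list the same GenBank accession.

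Pnpla2 had 1 probe set lower and 1 higher. The leading probe set lay at 10.81 to 12.33 in the 1-allele arrays and 13.73 to 14.00 in the 2-allele arrays (mean difference -1.99), and the other at 9.03 to 10.43 and 7.00 to 8.08 (mean difference 2.41). The distance between the highest and the lowest such difference was 4.42 for Fabp4, 4.40 for Pnpla2 and 4.25 for Slc2a4, against a median of 1.71 over 6836 genes with at least 2 probe sets, of which 5.79%, 5.88% and 6.80% had a distance at least that large. The 3' minus 5' actin signal moved with the array set, and its part in the disagreement was not tested.

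**Figure D3:**
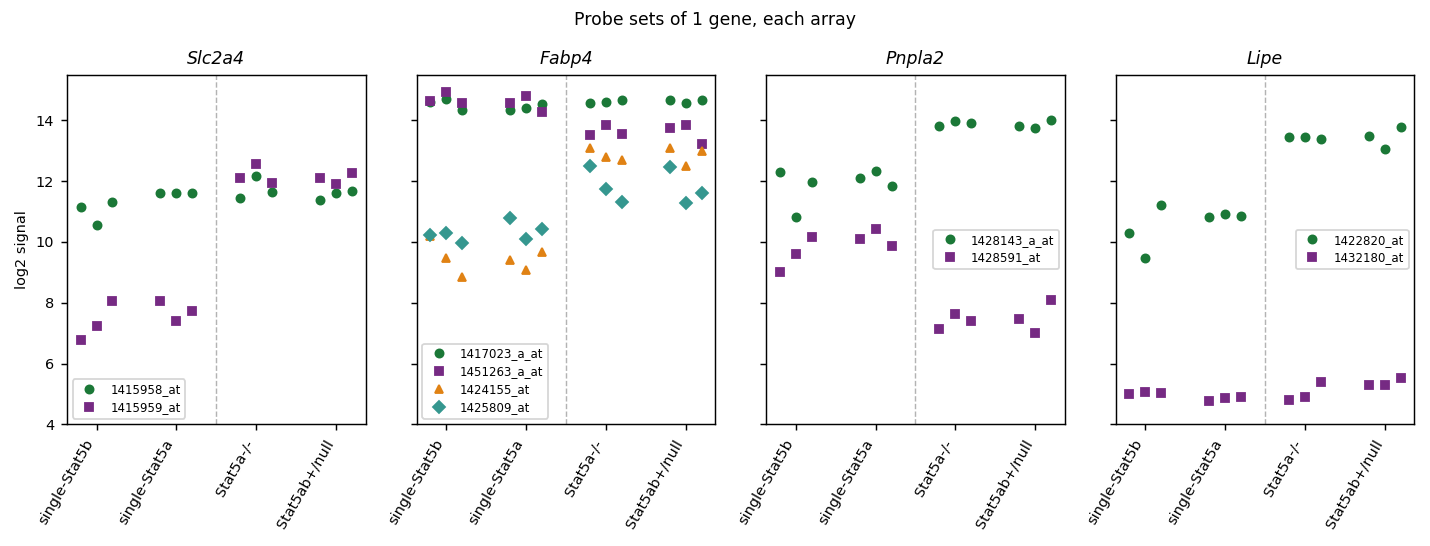
Log2 signal (vertical axis) of every probe set of Slc2a4, Fabp4, Pnpla2 and Lipe in each array, with the genotypes on the horizontal axis, 1 marker shape per probe set and a dashed line between the 1-allele arrays (left) and the 2-allele arrays (right). The Slc2a4 probe sets differ by -0.34 and -4.60 between the sets, and those of Pnpla2 cross in direction at -1.99 and 2.41.

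The genes with 1 usable probe set also stood lower in the 1-allele arrays, to unequal degrees. Lipe differed by -2.84, Plin4 by -1.79 and Cidec by -1.29 between the means of the array sets, each with no array of one set reaching the other. Adipoq differed by -0.63, also without overlap. The share of all probe sets without overlap between the array sets was not counted. A fall at least as large as that of Lipe was seen in 1.67% of all probe sets. For Plin4, Cidec and Adipoq the shares were 7.12%, 13.6% and 28.2%. Pparg, at -0.56, Lep, at -0.20, and Retn, at -0.12, overlapped between the sets. All 10 leading probe sets were lower in the 1-allele arrays, with a median of -0.59, while over all probe sets 48.8% were lower, the median was 0.030, and 41.8% differed by at least 1 in either direction.

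Within the 1-allele arrays, 1 mouse stood apart in this list. Single-Stat5b 2 was the lowest of the 6 arrays for 8 of the 10 genes, and the mean of the 10 genes was 12.20, 11.63 and 12.40 in single-Stat5b 1 to 3, against 12.47, 12.64 and 12.45 in single-Stat5a 1 to 3. The groups of means do not overlap, but single-Stat5b 3 lies within 0.1 of the lowest single-Stat5a mouse. Without single-Stat5b 2 the median difference of the 10 genes was -0.16, and those of Plin4, Lipe, Pparg and Cidec were -0.26, -0.12, -0.12 and -0.42. The Cidec difference was smallest, at -0.27, with list means for B cells and muscle in the fit. Without single-Stat5b 3 the median was -0.66 and 2 members were called, Cidec (-1.04, limma adjusted p = 0.0131) and Lipe (-0.99, limma adjusted p = 0.0418), in a fit that called 2017 probe sets in all. In the 2-allele arrays Stat5a-/- 2 was the highest of 6 for 6 of the 10 genes, and the mean of the 10 genes was 13.31, 13.50 and 13.09 in the arrays labelled Stat5a-/-, against 13.34, 13.22 and 13.27 in those labelled Stat5ab+/null.

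Markers of other cell types were read beside the 1-allele comparison. The skeletal muscle list, measured at 12 of 12 genes, averaged 8.03 to 10.76 in single-Stat5b mice and 9.73 to 13.28 in single-Stat5a mice. The luminal epithelium list had 11 of 12 genes above 0 and averaged 10.88 to 11.20 in single-Stat5b mice and 10.29 to 10.92 in single-Stat5a mice. The endothelial list had 9 of 10 genes below 0 and averaged 9.38 to 9.86 in single-Stat5b mice and 9.92 to 10.18 in single-Stat5a mice. The brown adipocyte list, measured at 8 of 10 genes, had 6 below 0 and averaged 8.32 to 9.34 in single-Stat5b mice and 8.90 to 9.89 in single-Stat5a mice. The median differences of the muscle, luminal, endothelial and brown adipocyte lists were -2.27, 0.35, -0.53 and -0.39, beside -0.48 for the 10 adipocyte genes. The other lists had 7 of 10 macrophage, 7 of 10 basal epithelium, 3 of 10 fibroblast, 3 of 8 T cell and 2 of 8 B and plasma cell genes below 0, with medians of -0.20, -0.065, 0.061, 0.17 and 0.19. No gene of these 9 lists passed the test. Between the arrays labelled Stat5a-/- and Stat5ab+/null the B and plasma cell list had 8 of 8 genes below 0 (median -1.42), none passed, and the medians of the other 8 lists lay between -0.29 and 0.28. With list means for B cells and muscle in the fit, the median difference of the 10 adipocyte genes was -0.29 between single-Stat5b and single-Stat5a. The part of any of these cell types in the adipocyte gene values was not tested.

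**Figure D4:**
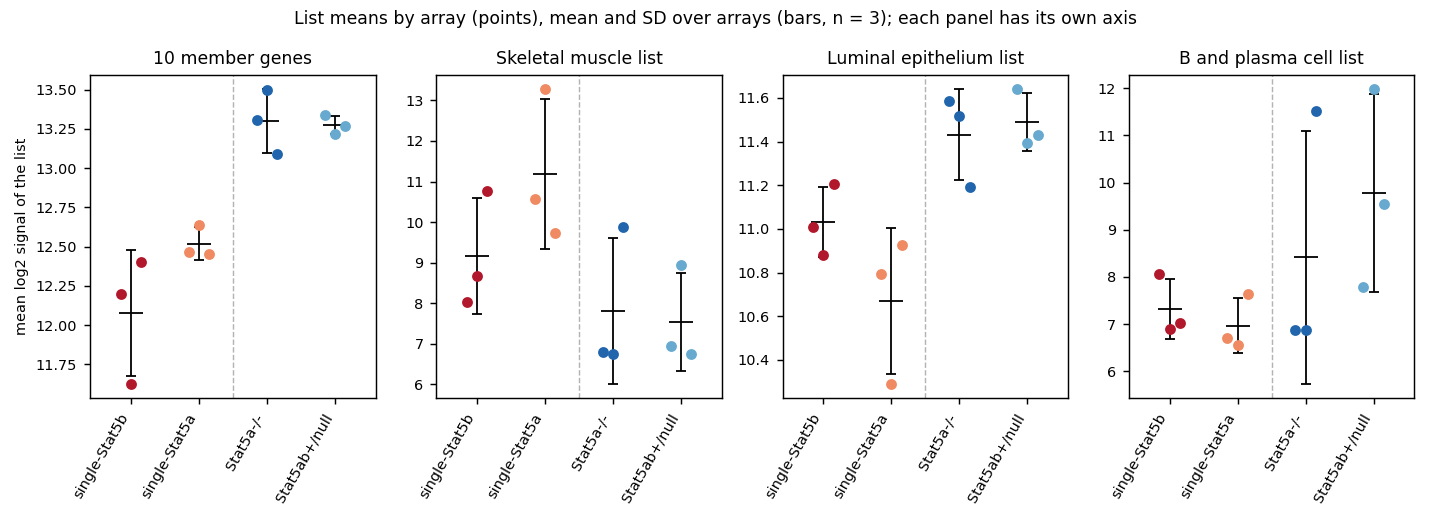
Mean log2 signal of 4 gene lists in each array (points, vertical axis, a scale of its own in each panel), by genotype (horizontal axis), with the mean and SD over arrays (bars, n = 3). The 10 adipocyte genes average 11.63 to 12.40 in single-Stat5b and 12.45 to 12.64 in single-Stat5a, muscle is highest in single-Stat5a 2 at 13.28, and the B and plasma cell list is high in Stat5a-/- 3 and Stat5ab+/null 2 at 11.52 and 11.98.

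The wider adipocyte program was read from 6 further lists. In the comparison of single-Stat5b with single-Stat5a, 1 of 61 measured list entries passed, Lpin1 on the list of triglyceride assembly and fatty acid uptake, where 2.89% of all probe sets passed. Lpin1 encodes lipin 1, the phosphatidate phosphatase that makes the diglyceride for triglyceride. It stood at 10.83, 10.94 and 11.28 in single-Stat5b mice, against 11.97, 12.14 and 12.06 in single-Stat5a mice, and fell by 1.04 (SE 0.20, limma adjusted p = 0.0123) with no overlap. Its other probe set differed by -1.11. Of the 11 measured genes on that list 8 were below 0, with a median of -0.29. Over 24 alternatives its difference lay between -1.17 and -0.94, with adjusted p 0.0069 to 0.129, and 19 kept the call. The other 5 were leaving out single-Stat5a 2, leaving out single-Stat5b 1, the list means of muscle and B cells in the fit, a fit of only the groups compared, and the joint removal of 4 arrays.

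On the list of lipid droplet and lipolysis control, 0 of 13 measured genes passed and 10 were below 0, with a median of -0.30. Its largest differences were those of Cidea, a droplet protein of brown fat, with 8.50 ± 0.27 for single-Stat5b arrays and 9.32 ± 0.73 for single-Stat5a arrays (SD, n = 3; -0.82), and Prkar2b, a regulatory subunit of the protein kinase A that triggers lipolysis, with 12.19 ± 0.41 for single-Stat5b and 12.81 ± 0.19 for single-Stat5a (-0.62). On the list of other secreted factors 0 of 9 passed and 6 were below 0, with a median of -0.15. Agt, the angiotensinogen gene, averaged 7.53 ± 1.38 for single-Stat5b arrays and 8.81 ± 0.45 for single-Stat5a arrays (-1.28). Angptl4, an inhibitor of lipoprotein lipase, averaged 11.95 ± 0.55 for single-Stat5b and 12.79 ± 0.38 for single-Stat5a (-0.84). In single-Stat5b 2 Agt stood at 5.99, and the other mice of its group were at 7.95 and 8.66.

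Among adipocyte transcription factors 0 of 12 passed and 7 were below 0, with a median of -0.066. Ebf1, a factor of early fat cell formation, averaged 12.72 ± 0.56 for single-Stat5b arrays and 12.15 ± 0.16 for single-Stat5a arrays (SD, n = 3; 0.56, with 3 of its other 4 probe sets below 0), and Zfp423, a regulator of white fat identity, averaged 7.95 ± 0.49 for single-Stat5b and 8.41 ± 0.64 for single-Stat5a (-0.46). Among insulin and glucose uptake genes 0 of 10 passed and 6 were below 0 (median -0.038), with Trarg1, a regulator of GLUT4 traffic, at -0.51 and the kinase gene Akt2 at -0.39. Among hormone receptors 0 of 6 passed and 4 were below 0 (median -0.13), with the adiponectin receptor gene Adipor2 at -0.54 and Cdh13, which encodes an adiponectin-binding cadherin, at -0.37. Several of these uncalled values rested on 1 array. Without single-Stat5b 2 the differences were -0.14 for Trarg1, -0.12 for Akt2, -0.32 for Adipor2, -0.51 for Agt, -0.54 for Angptl4 and 0.32 for Ebf1. Zfp423 was at -0.098 without single-Stat5a 2, Cidea at -0.45 without single-Stat5a 1, and Prkar2b at -0.38 and Cdh13 at -0.13 without single-Stat5b 1. Over all 24 alternatives Trarg1 reached 0.011 and Zfp423 0.037, so that their signs turned. Between the arrays labelled Stat5a-/- and Stat5ab+/null, 0 of the 61 entries passed, where 0.00952% of all probe sets did, and the list medians lay between -0.15 and 0.058.

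Profiles were compared over the 12 arrays after the mean of each array set was taken off, with the root mean square log2 difference as the measure of likeness. The 5 genes nearest to Lep among 14188 were Timp4 (0.34), Cyp2f2 (0.47), Sncg (0.48), Adamtsl4 (0.49) and Synpo2 (0.49), against a median of 0.84. The other 9 members lay farther from Lep than these, at 0.72 for Plin4 to 0.86 for Lipe. The measure depends on how much a gene varies. The root mean square of the Lep profile itself was 0.81, which is the distance of a flat profile. Adipoq and Retn lay at 0.79 and 0.81, and their own profiles had root mean squares of only 0.11 and 0.088. The 5 genes nearest to the mean profile of the 10 members were Eif4g3 (0.078), Golgb1 (0.079), Gda (0.086), Galnt2 (0.087) and Map4 (0.093), against a median of 0.32. Slc2a4, at 0.17, was the member nearest to that mean and Lep, at 0.69, the farthest. The mean includes each member itself. Its root mean square, the distance of a flat profile, was 0.25. Plin4 (0.26), Lipe (0.27), Fabp4 (0.33) and Lep lay farther from the mean than a flat profile.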

How the data were processed

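The deposited values are log2 signals per probe set, 1 column per array. RMA and Partek are named in the submitters' processing notes, without version or settings. Array medians ran from 7.28 to 7.50. Labels give biotin-labelled cRNA from Trizol-extracted total RNA. Genotypes came from the genotype labels, and replicates were numbered in record order. Probe sets were named from the platform annotation (34945 with 1 gene, 932 with several, 9160 with none, 64 controls left out).

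Members, lists, tests and alternatives were chosen with earlier results of these data known. Probe sets under the 30th percentile of mean signal were left out. The fit used limma 3.58.1 in R 4.3.3 with 1 mean per genotype, 2-sided moderated tests and Benjamini-Hochberg adjustment over all probe sets, and was tested on simulated data. Exact permutation of 3 against 3 cannot go below p = 0.1.

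Named were all member probe sets; of each pathway list the called genes, otherwise the 2 largest differences between single-Stat5b and single-Stat5a; and the 5 nearest profiles to Lep and to the members' mean. Lists used the highest-mean probe set of a gene. Alternatives were no filter, a 50th percentile filter, quantile normalization, median centring, 1 probe set or a mean per gene, trended robust variance, array weights, only the groups compared, B cell and muscle means or the actin 3' minus 5' signal as covariates, and each array left out. Listed genes with no probe set of their own, such as Plin1 and Adrb3, were not analysed here.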

Additional observations from a re-analysis of the deposited data

How the results depend on the processing

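Of 769 repeats of the 33 member results under the alternatives, 699 kept direction and side of the threshold, 68 turned sign and 2 passed where the reported value did not. The cause was not tested for any of them. No member passed in Stat5a-/- minus Stat5ab+/null or in the difference of the within-set comparisons under any alternative run; in single-Stat5b minus single-Stat5a 2 members passed without single-Stat5b 3 and 0 in the other alternatives (0 to 2 leaving out an array). The number of arrays limits what can be seen. No paired analysis was possible because the labels give no replicate number shared between groups.

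Counts over all probe sets, 912 for single-Stat5b minus single-Stat5a, were 534 with the 50th percentile filter, 310 with 1 probe set a gene, 342 with their mean, 504 with only the groups compared, 572 with B cell and muscle covariates, and 652 to 2017 leaving out an array. The 345 of the difference of comparisons were 202, 110 and 120 in the first 3 of these, 200 with the covariates, 1018 with array weights, 217 with 4 arrays left out and 233 to 521 leaving out an array. The 3 of Stat5a-/- minus Stat5ab+/null were 1 with 1 probe set a gene or their mean, 430 with array weights, 5 with only these groups, 0 with the covariates or with 4 arrays left out, and 0 to 6 leaving out an array. The 4 arrays (Stat5a-/- 3, Stat5ab+/null 2, single-Stat5a 2, single-Stat5b 2) were chosen after seeing the data, and the median member difference was then -0.11 for single-Stat5b minus single-Stat5a and -0.0010 for Stat5a-/- minus Stat5ab+/null.

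In Stat5a-/- minus Stat5ab+/null, where the reported differences lay between -0.14 and 0.20, signs turned as follows. Quantile normalization gave Lep 0.024, Retn 0.00092 and Pparg 0.012. Median centring gave Retn 0.027, Pparg 0.011, Lipe 0.0050, Fabp4 0.023 and the third Fabp4 probe set 0.028. The mean of probe sets gave Pnpla2 -0.046 and Fabp4 0.026. Array weights gave Lep 0.43, Retn 0.11, Pparg 0.090, the second Pnpla2 probe set 0.027 and the fourth Fabp4 probe set -0.061. The B cell and muscle covariates gave Adipoq -0.083, Pparg 0.026, Cidec -0.081, the second Slc2a4 probe set -0.061, and for Fabp4 0.041, -0.065, 0.15 and -0.080. The actin covariate gave Adipoq -0.0096 and Fabp4 0.00073 and 0.046. With 4 arrays left out Lep was 0.96, Retn 0.023 and Pnpla2 -0.0053. Leaving out an array gave Lep -0.59 to 0.70, Adipoq -0.037 to 0.024, Retn -0.085 to 0.060, Pparg -0.10 to 0.047, Plin4 -0.18 to 0.058, Lipe -0.22 to 0.15, Pnpla2 -0.0085 to 0.12 and -0.40 to 0.14, Slc2a4 -0.011 to 0.35 and -0.078 to 0.24, and Fabp4 -0.039 to 0.015, -0.16 to 0.15, -0.18 to 0.12 and -0.24 to 0.42.

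In single-Stat5b minus single-Stat5a, the third Fabp4 probe set was -0.38 with the B cell and muscle covariates, -0.033 with the actin covariate, -0.0011 with 4 arrays left out and -0.21 to 0.46 leaving out an array. Pnpla2 was 0.15 with 4 arrays left out and -0.71 to 0.029 leaving out an array.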
